A study of Mus musculus with 21 samples.

Results

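The genes described here are 10 components of fibroblast growth factor (FGF) signalling in mouse tail keratinocytes: the receptors Fgfr1, Fgfr2 and Fgfr3, the ligand Fgf22, the Sprouty inhibitors Spry1, Spry2 and Spry4, the phosphatase Dusp6 and the transcription factors Etv4 and Etv5. They were picked by gene name, and all 10 were present among the 23713 genes of the count table. Each passed the filter on low counts in both Con and BCC of every model. RNA-seq was done on the epidermal cells of 3 mouse models of basal cell carcinoma (BCC), a skin tumour driven by Hedgehog signalling. The SmoM2 model, named after an active form of the Hedgehog transducer Smoothened, was sampled 29 days after tumour induction. The Gnas-eKO model, labelled as a knockout of Gnas, the gene of the stimulatory G protein, was sampled at 42 days. The PKI model, which the labels give by that abbreviation alone, was sampled at 57 days. Each model had 3 libraries from control mice without tumour (Con) and 4 from tumour-bearing mice (BCC), which makes 21 in all. The labels used here do not give the promoter or Cre line, the inducing agent, the strain, the age of the mice or what the controls carried. Each model was its own batch (A, B or C) and its own day, so model, batch and day cannot be told apart in any comparison between models. In the SmoM2 model the animal names in the column headers also began with other letters in BCC than in Con, which they did not in the other models, so that split cannot be told apart from the BCC effect there.

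FGFs are secreted ligands that bind receptor tyrosine kinases at the cell surface, mostly together with heparan sulphate, and signal to a large part through RAS and the kinase ERK. ERK activity turns on Etv4 and Etv5, which are ETS-family transcription factors, and also Sprouty genes and Dusp6, whose products dampen the same pathway. In epidermis the IIIb splice form of Fgfr2 is the main receptor of basal keratinocytes, and Fgf22 is a ligand made by skin epithelium. Messenger RNA of these genes measures transcript level, not receptor activity.

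Library totals ran from 16645858 to 22251132 counts, and levels below are CPM, counts scaled to library size, with 1 TMM normalization (trimmed mean of M values) over the 21 libraries. On the first principal component, which held 30.2% of the variance, Con libraries lay between -57 and -40.2 and BCC libraries between 32.1 and 60, except Gnas-eKO BCC replicate 2 at -20.6. Gnas was at 175 ± 2.81 CPM (SD, n = 3) in Gnas-eKO Con and 80 ± 27.9 (n = 4) in Gnas-eKO BCC, with no library of BCC above 114 (edgeR adjusted p = 0.0647). Smo was at 103 ± 8.53 CPM in SmoM2 Con and 299 ± 12.4 in SmoM2 BCC, and its counts cannot separate the SmoM2 copy from the normal one. Pkia, a gene of the inhibitor family, was at 4.31 ± 0.639 CPM in PKI Con and 2.77 ± 0.81 in PKI BCC (adjusted p = 0.0956), so these counts do not check the PKI label. The 8 keratinocyte markers summed to at least 30400 CPM in every library. Their sum was lower in BCC without overlap in SmoM2 (57300 to 74100 CPM in Con, 38500 to 53400 in BCC, 5 of 8 called lower and 1 higher, beside 13.5% and 16.2% of all genes) and in Gnas-eKO (57800 to 69400 in Con, 30400 to 51000 in BCC, 0 of 8 called in edgeR beside 1.63%, and 2 at an unadjusted p under 0.05). Over all genes 3212 of 16409 met that unadjusted cut in Gnas-eKO. The PKI sums overlapped (52600 to 71000 and 46600 to 75900), with 3 of 8 called lower and 1 higher, beside 15.8% and 18.7%. Fibroblast markers, 8 of 8 of which were in the table, summed to at most 44.8 CPM in any Con library. In BCC they summed to 390 to 525 in SmoM2, 94.7 to 579 in Gnas-eKO and 85.3 to 147 in PKI, with 0 of the 8 genes at 0 throughout any group. Most of the sum was Dcn, at a mean of 440 CPM in SmoM2 BCC, while Pdgfra reached at most 1.19 CPM in any library. Myeloid markers (7 of 7 in the table) summed to between 240 and 451 CPM in the tumours of PKI, beside 41.7 to 108 in its Con libraries. Most of that sum was Cd74, at a mean of 43.6 CPM in PKI Con and 249 in PKI BCC, while Itgam was at 11 and 13.3. Other lists moved in PKI too: T cell markers summed to 8.67 to 14.4 CPM in Con and 16.2 to 35.1 in BCC, and melanocyte markers to 167 to 217 and 82 to 131 (5 of 6 called lower, beside 15.8% of all genes). In Gnas-eKO, T cell sums were 4.71 to 6.65 CPM in Con and 5.46 to 34.9 in BCC, highest in BCC replicate 3. Myeloid sums there were 89.9 to 119 in Con and 76.2 to 228 in BCC, highest in BCC replicate 1. Endothelial markers reached at most 5.11 CPM in any Con library and 9.31 in any BCC library, and the sums did not overlap within a model. Merkel cell markers summed to 0.619 to 1.48 CPM in the tumours of PKI beside 2.29 to 2.85 in its Con libraries, and to 3.22 to 3.95 in those of SmoM2 beside 1.03 to 2.53. The SmoM2 rise was in Piezo2 alone, with means of 0.607 CPM in Con and 2.71 in BCC. Krt20, Atoh1 and Isl1, the rest of that list, had lower means in SmoM2 BCC than in SmoM2 Con. In bulk RNA, a change in the share of a cell type and a change in RNA per cell cannot be told apart. The part of these cells in the results below was not tested.

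In control skin, Fgfr2 and Fgfr3 were the most abundant of the 10 transcripts. Per kilobase of merged exons, Fgfr2 stood at 37.6 ± 3.34 CPM per kb (SD, n = 9 Con libraries) and Fgfr3 at 35.8 ± 3.38, and these values did not differ beyond their spread on that length. Spry1 followed at 17.4 ± 3.17, then Spry2 at 11.1 ± 1.52, Fgfr1 at 9.97 ± 1.45 and Dusp6 at 9.62 ± 3.76, of which the last 3 overlapped in range. Etv5 was at 6.81 ± 1.7, within the range of Dusp6 for part of its libraries, and Etv4 at 5.14 ± 0.854, overlapping Etv5. Fgf22 was far lower at 1.82 ± 0.736, and Spry4 the lowest at 0.292 ± 0.0989. With the longest transcript in place of merged exons, Fgfr1 moved to 19.5 CPM per kb, above Spry1 at 18.3 and Spry2 at 11.1, so the place of Fgfr1 in the order depended on the length used. On the same length Fgfr2 was at 87.6 (75.2 to 98.4) and Fgfr3 at 60.3 (52.2 to 66.8), which did not overlap. In BCC, mean Etv4 levels were 11.5, 11.2 and 13.2 CPM per kb of merged exons for SmoM2, Gnas-eKO and PKI, above mean Etv5 levels of 5.8, 5.89 and 3.98. On the longest transcript Etv4 was already level with or above Etv5 in Con of SmoM2 (6.38 and 6) and Gnas-eKO (7.45 and 6.63) but not of PKI (6.16 and 8.47), so their order in Con depended on the length too.

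The 10 genes did not move as a block. With edgeR's quasi-likelihood test and Benjamini-Hochberg adjustment over all genes tested, 5 of the 10 passed an adjusted p of 0.05 in SmoM2, of which 4 were higher and 1 lower in BCC. The share over all genes tested was 29.7%, or 16.2% higher and 13.5% lower. In PKI 7 of 10 passed, 3 higher and 4 lower, against 34.5% of all genes, or 18.7% higher and 15.8% lower. In Gnas-eKO 0 of 10 passed, against 1.63% of all genes, or 1.46% higher and 0.165% lower. There 4 of the 10 had an unadjusted p under 0.05, DESeq2's Wald test called 3 (Fgfr1, Fgfr3 and Etv4), limma called 0, edgeR without the filter on low counts called 1 (Fgfr1), and a fit of all 21 libraries together called 3. Over all genes the matching counts were 3212, 1535 and 264 of 16409, 309 of 23571 and 2644 of 17695, in that order. For SmoM2 the 10 genes had a median log2 fold change of 0.33 (0 over all genes tested), for Gnas-eKO 0 (0.02 over all) and for PKI -0.39 (0 over all). All BCC libraries lay above all Con libraries for 4 of the 10 genes in SmoM2, beside 19.7% of all genes, and below them for 1, beside 19.2%, or 38.9% together. The Gnas-eKO libraries separated for 3 genes, 2 above and 1 below, beside 9.73% and 10.1%, or 19.8% together. For PKI it was 3 above and 4 below, beside 22.4% and 20.8%, or 43.2% together.

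**Figure D1:**
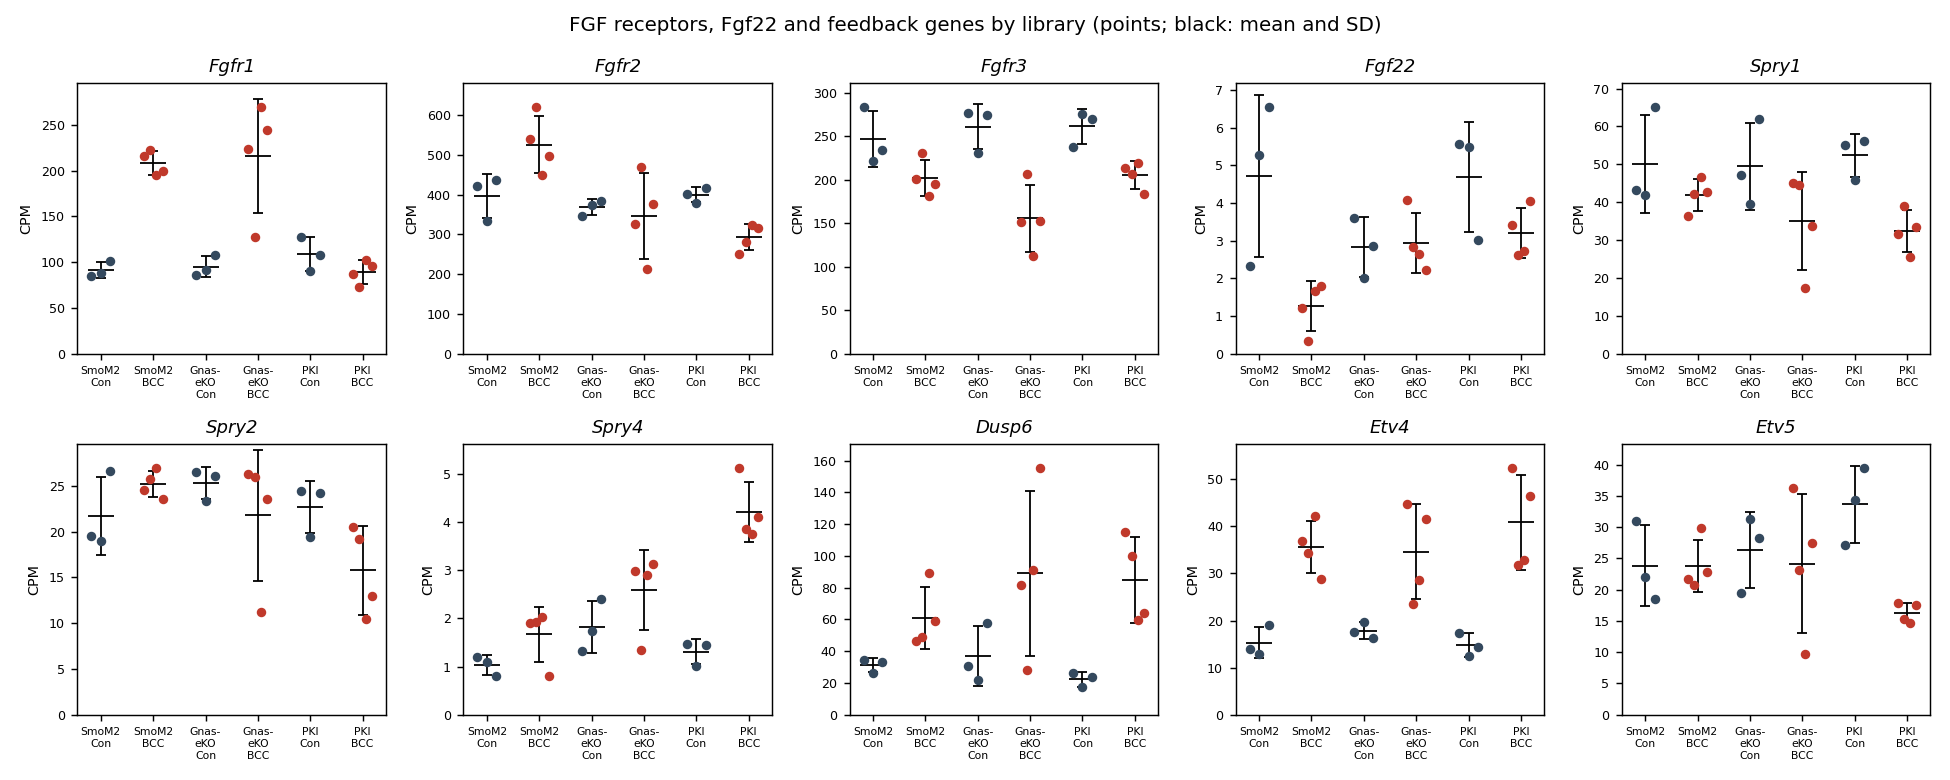
Level of each of the 10 genes in CPM (vertical axes, each from 0) in the 21 libraries, by model and group. Points are libraries and black marks give the mean and SD. Etv4 is higher in every BCC library than in any Con library of its model, and Etv5 separates in PKI.

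Fgfr1, a receptor gene that lies on GRCm38 chromosome 8 from 25513654 to 25575718 on the plus strand, was higher in tumours of SmoM2 and not in those of PKI. In SmoM2, Con libraries 1 to 3 held 85.3, 88.3 and 101 CPM and BCC libraries 1 to 4 held 216, 222, 195 and 200. All BCC libraries lay well above Con, and Fgfr1 rose 2.31-fold (log2 fold change 1.21, SE 0.08, edgeR adjusted p = 7.8e-06). In Gnas-eKO the Con libraries held 85.5, 91.8 and 108 CPM and the BCC libraries 224, 127, 269 and 244. Here too no BCC library overlapped Con, but replicate 2 was close to it, and the same log2 fold change of 1.21 had an SE of 0.25 and an adjusted p of 0.0534 in edgeR, or 0.0394 with no filter on low counts. Without Gnas-eKO BCC replicate 2 the log2 fold change was 1.4 (adjusted p = 0.00125). Leaving out that replicate also raised the calls over all genes from 267 to 1910. With any other library left out Fgfr1 did not pass there (adjusted p up to 0.235). The fibroblast marker sums of BCC replicates 1 to 4 were 203, 579, 94.7 and 288 CPM, and their part in the Fgfr1 values was not tested. In PKI, Con held 128, 90.3 and 108 CPM and BCC 86.5, 72.6, 102 and 96.1, which overlapped (log2 fold change -0.27, SE 0.14, adjusted p = 0.164). Of the alternatives, only the replicate number as a block brought that value past the threshold (-0.31, adjusted p = 0.0439).

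Fgfr2, the receptor whose IIIb form predominates in keratinocytes, sits on chromosome 7 from 130162451 to 133123350 on the minus strand. The annotated gene spans 2960900 bases and shares 3.04% of its exon bases with Ctbp2 on the same strand, so its counts may hold some reads of that gene. Ctbp2 reached at most 32.8 CPM, with log2 fold changes of 0.29 in PKI (edgeR adjusted p = 0.029) and 0.28 in SmoM2 (0.0511). Fgfr2 in PKI was at 402, 379 and 417 CPM in Con libraries and 251, 281, 323 and 316 in BCC libraries. The groups did not overlap, and Fgfr2 fell by 0.44 on the log2 scale (SE 0.1, edgeR adjusted p = 0.0074). In SmoM2 the direction was the opposite, from 422, 333 and 436 CPM in Con to 540, 619, 448 and 496 in BCC. That increase (log2 fold change 0.42, SE 0.13) passed with an adjusted p of 0.035, and the call ended in the fit of all libraries together (adjusted p = 0.119). It also ended without Con replicate 1 (0.0551) or 2 (0.124), or without BCC replicate 1 (0.0766), 2 (0.0651) or 4 (0.0531). The PKI call ended in the fit of all libraries too (adjusted p = 0.0663). In Gnas-eKO the BCC libraries were spread from 212 to 469 CPM around Con values of 346, 374 and 384.

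Fgfr3, another receptor kinase of epidermis, lies on chromosome 5 from 33721674 to 33737068 on the plus strand. Of its exon bases, 13.942% lie opposite G630022F23Rik, a gene that reached at most 0.541 CPM. Fgfr3 was the only receptor with a negative estimate in all 3 models. In PKI it fell from 238, 276 and 270 CPM in Con to 213, 206, 219 and 183 in BCC, without overlap (log2 fold change -0.34, SE 0.09, edgeR adjusted p = 0.0159), and the call ended without PKI Con replicate 2 (adjusted p = 0.069) or 3 (0.0615) and in the fit of all libraries (0.0804). In Gnas-eKO, Con held 277, 231 and 274 CPM and BCC 151, 206, 112 and 153. These groups did not overlap either, and the estimate of -0.73 (SE 0.19) had an adjusted p of 0.0937, or 0.0131 without BCC replicate 2. With any other library left out Fgfr3 did not pass in Gnas-eKO (adjusted p up to 0.283). In SmoM2 the values overlapped, with 283, 222 and 234 CPM in Con and 201, 231, 181 and 195 in BCC (log2 fold change -0.27, adjusted p = 0.082, or -0.34 and 0.0373 without BCC replicate 2).

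Fgf22, the ligand of the set, is a gene of 2 exons on chromosome 10 from 79755076 to 79758596 on the plus strand. It was the lowest but one of the 10 in control skin, with 2.34, 5.29 and 6.54 CPM in SmoM2 Con and 1.22, 0.337, 1.67 and 1.81 in SmoM2 BCC. The BCC libraries all lay under Con, and Fgf22 fell by 1.88 on the log2 scale (SE 0.51, edgeR adjusted p = 0.0235), a call that ended without Con replicate 2 (0.074), Con replicate 3 (0.0758) or BCC replicate 1 (0.0637). The call ended too with the replicate number as a block (adjusted p = 0.0553). In Gnas-eKO the values overlapped, between 2.02 and 3.6 CPM in Con and 2.22 and 4.08 in BCC (log2 fold change 0.08, adjusted p = 0.918). In PKI, Con held 5.56, 5.5 and 3.01 CPM and BCC 3.43, 2.63, 2.72 and 4.06 (log2 fold change -0.54, adjusted p = 0.155). Its end overlaps 82 exon bases of Rnf126 on the opposite strand, a gene at 71 to 107 CPM that was itself lower in SmoM2 BCC (log2 fold change -0.29, adjusted p = 0.0143), and whether the counting used strand is not given in the sources used here.

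The Sprouty genes, inhibitors that act between receptor and RAS, split in direction. Spry4, on chromosome 18 from 38586247 to 38601415 on the minus strand, had 1.47, 1.01 and 1.44 CPM in PKI Con and 5.12, 3.87, 3.75 and 4.11 in PKI BCC. The groups were far apart and Spry4 rose 3.23-fold (log2 fold change 1.69, SE 0.25, edgeR adjusted p = 0.0012). In SmoM2 it read 1.2, 1.09 and 0.811 CPM in Con and 1.9, 1.93, 2.04 and 0.806 in BCC, where replicate 4 lay just under the lowest Con library (log2 fold change 0.7, adjusted p = 0.184). Without that replicate the estimate was 0.93 (adjusted p = 0.0454). In Gnas-eKO, Con held 1.32, 1.74 and 2.4 CPM and BCC 2.98, 1.34, 2.91 and 3.14, so that only replicate 2 was inside the Con range (log2 fold change 0.53, adjusted p = 0.491). A floor of 3 counts was at most 0.19 CPM, below all these values.

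Spry1, on chromosome 3 from 37639947 to 37644598 on the plus strand, went the other way in PKI. Con held 55, 45.9 and 56.2 CPM and BCC 31.6, 39, 25.5 and 33.5, with no overlap, and Spry1 fell by 0.68 on the log2 scale (SE 0.14, edgeR adjusted p = 0.00578). In SmoM2 (log2 fold change -0.24, adjusted p = 0.305) and Gnas-eKO (-0.48, adjusted p = 0.443) the groups overlapped. The lowest Spry1 library of all 21 was Gnas-eKO BCC replicate 3 at 17.3 CPM. Of its exon bases 24.432% lie opposite Gm42922, which reached at most 0.708 CPM. Spry2, on chromosome 14 from 105891947 to 105896819 on the minus strand, passed in no model. It read 19.5, 19 and 26.6 CPM in SmoM2 Con and 24.5, 25.8, 26.9 and 23.6 in SmoM2 BCC (log2 fold change 0.23, adjusted p = 0.208, or 0.4 and 0.0164 without Con replicate 3), and in PKI 24.4, 19.4 and 24.2 in Con and 20.5, 19.2, 10.4 and 13 in BCC (-0.51, adjusted p = 0.128). In Gnas-eKO it ranged from 11.2 to 26.3 CPM in BCC around Con values of 26.5, 23.3 and 26.1.

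Dusp6, the phosphatase that removes the activating phosphates of ERK, had its largest estimate in PKI. It is a gene of 4 merged exons on chromosome 10 from 99263231 to 99267489 on the plus strand. PKI Con held 26.2, 17.1 and 23.7 CPM and PKI BCC 115, 99.6, 59.4 and 64.3. The lowest BCC library held far more than the highest Con library, and Dusp6 rose 3.82-fold (log2 fold change 1.93, SE 0.28, edgeR adjusted p = 0.00213). In SmoM2 it rose from 34.3, 26.3 and 33.1 CPM to 46.3, 48.9, 89 and 59.1, again without overlap (1.97-fold, log2 fold change 0.97, SE 0.24, adjusted p = 0.021). That call ended without any 1 of the 3 Con libraries (adjusted p = 0.0548, 0.0754 and 0.0691) and in the fit of all libraries (0.132). In Gnas-eKO the BCC libraries were widely spread, at 81.5, 28.3, 91.3 and 155 CPM, and the Con libraries stood at 30.5, 22.1 and 58. Replicate 2 lay inside the Con range, and the log2 fold change of 1.29 had an SE of 0.53 and an adjusted p of 0.229, or 1.59 and 0.0354 without it. With any other library left out Dusp6 did not pass in Gnas-eKO (adjusted p up to 0.543).

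Etv4 and Etv5 are close relatives in the PEA3 group of ETS factors, and they parted in these tumours. Etv4, on chromosome 11 from 101769742 to 101785371 on the minus strand, had 14, 12.9 and 19 CPM in SmoM2 Con and 36.9, 34.3, 42.2 and 28.9 in SmoM2 BCC (2.35-fold, log2 fold change 1.23, SE 0.17, edgeR adjusted p = 0.000558). In PKI it had 17.4, 12.4 and 14.4 CPM in Con and 52.3, 31.7, 32.9 and 46.4 in BCC (2.79-fold, log2 fold change 1.48, SE 0.21, adjusted p = 0.0013). Gnas-eKO showed 17.6, 19.7 and 16.2 CPM in Con and 44.7, 23.6, 28.7 and 41.5 in BCC, a log2 fold change of 0.98 (SE 0.23) with an adjusted p of 0.0769, or 1.13 and 0.00887 without BCC replicate 2. With any other library left out Etv4 did not pass in Gnas-eKO (adjusted p up to 0.257). Etv4 was thus higher in every BCC library than in any Con library of its own model, in all 3 models, with calls in SmoM2 and PKI.

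Etv5, on chromosome 16 from 22381309 to 22439719 on the minus strand, fell in PKI from 27.2, 34.4 and 39.4 CPM to 17.8, 15.3, 14.7 and 17.5. The PKI groups did not overlap, and Etv5 changed by -1.03 on the log2 scale (SE 0.14, edgeR adjusted p = 0.000803). In SmoM2, Con held 31, 22 and 18.5 CPM and BCC 21.7, 20.8, 29.9 and 22.9, fully overlapping (log2 fold change 0.01, SE 0.19, adjusted p = 0.972). In Gnas-eKO the BCC libraries ranged from 9.63 to 36.3 CPM around Con values of 19.5, 31.3 and 28.3 (log2 fold change -0.1, adjusted p = 0.911).

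The ratio of Etv4 to Etv5 within a library (log2, with 0.5 added to each count) shows the same libraries on 1 scale and is given as a description, since it was chosen with these values in view. In SmoM2 it ran from -1.15 to 0.04 in Con and from 0.33 to 0.77 in BCC. In Gnas-eKO it ran from -0.8 to -0.15 in Con and from 0.02 to 1.57 in BCC, and in PKI from -1.47 to -0.64 and from 1.05 to 1.55. The groups did not overlap in any model. BCC exceeded Con by a mean of 1.21 for SmoM2, 1.16 for Gnas-eKO and 2.48 for PKI.

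**Figure D2:**
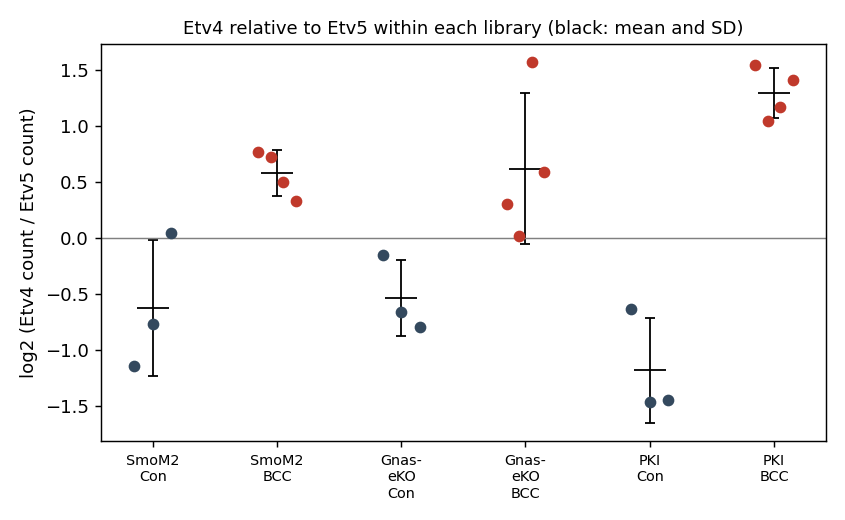
Log2 ratio of Etv4 to Etv5 (vertical axis) in each of the 21 libraries, by model and group. Points are libraries and black marks the mean and SD. The BCC libraries lie above the Con libraries of their model, by 2.48 in the mean in PKI.

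The windows just upstream of Dusp6 and Etv5 are shown because these genes are textbook targets of ERK-regulated ETS factors and moved in opposite directions in PKI. They are the 250 bases before the RefSeq start on GRCm38.p6, 5′ to 3′ on the strand of the gene, and capitals mark each GGAA or its complement TTCC, the core letters of ETS sites. The Dusp6 window is chr10:99262981-99263230 on the plus strand, and the Etv5 window is chr16:22438369-22438618 on the minus strand, at a start inside the annotated gene.
Dusp6: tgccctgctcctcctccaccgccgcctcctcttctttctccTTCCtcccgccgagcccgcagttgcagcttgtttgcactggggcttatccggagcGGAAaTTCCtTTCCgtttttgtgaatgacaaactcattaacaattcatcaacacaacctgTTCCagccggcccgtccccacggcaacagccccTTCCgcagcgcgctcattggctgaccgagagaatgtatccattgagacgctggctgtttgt
Etv5: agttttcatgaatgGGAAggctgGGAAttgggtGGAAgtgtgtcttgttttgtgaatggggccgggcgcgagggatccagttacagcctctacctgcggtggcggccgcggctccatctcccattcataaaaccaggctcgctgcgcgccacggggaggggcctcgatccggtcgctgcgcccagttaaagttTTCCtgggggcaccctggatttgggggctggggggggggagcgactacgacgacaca
The Dusp6 window holds 6 copies and the Etv5 window 4. GGAA on either strand is present in 93.4% of the 32851 promoters of the table, with a median of 3 copies, so a match is a description only. The longer letters GACCACCCA for GLI factors, ACCGGAAGT for ETS factors and TGACGTCA for the cyclic AMP response element were searched on both strands. They were found in 0.225%, 0.804% and 1.55% of all promoters. None was in the windows of the 7 members that the table holds (Dusp6, Etv5, Fgf22, Fgfr2, Fgfr3, Spry1 and Spry2), which says only that these letters are not there. The search for GGAA was added after the longer motifs.

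The BCC effects of the models were then set against each other by the difference of their log2 fold changes in 1 fit per pair. For PKI minus SmoM2, 3 of the 10 genes passed and all were more negative in PKI, beside 24.9% of all genes tested, or 12.6% more positive and 12.3% more negative. Fgfr1 differed by -1.48 (95% interval -1.85 to -1.1, edgeR adjusted p = 7.17e-05), Fgfr2 by -0.85 (-1.22 to -0.49, adjusted p = 0.00253) and Etv5 by -1.04 (-1.57 to -0.5, adjusted p = 0.00844). The Etv5 call ended in the fit of all libraries (adjusted p = 0.0974). The larger estimates of Spry4 and Dusp6 in PKI did not pass as differences from SmoM2, with 0.99 for Spry4 (0.07 to 1.91, adjusted p = 0.108) and 0.96 for Dusp6 (0.11 to 1.81, adjusted p = 0.0933). Etv4 differed by 0.25 (-0.36 to 0.86, adjusted p = 0.56). Leaving out 1 library brought further genes past the threshold: Dusp6 without SmoM2 BCC replicate 3 (adjusted p = 0.0241), Fgf22 without SmoM2 Con replicate 1 (0.0485), Spry1 without SmoM2 Con replicate 3 (0.0253), and Spry2 without SmoM2 Con replicate 3 (0.0392) or PKI BCC replicate 1 (0.028).

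For PKI minus Gnas-eKO, only Fgfr1 of the 10 passed, by -1.48 (95% interval -2.11 to -0.84, edgeR adjusted p = 0.00997), beside 9.06% of all genes, or 4.49% more positive and 4.57% more negative. The Etv5 difference was -0.93 (-1.89 to 0.04, adjusted p = 0.217), and it passed without Gnas-eKO BCC replicate 3 (-1.19, adjusted p = 0.0137), as did that of Fgfr2 (adjusted p = 0.0443). For Gnas-eKO minus SmoM2, 0 of the 10 passed in edgeR, beside 0.175% of all genes, or 0.0758% more positive and 0.0991% more negative. At an unadjusted p under 0.05 there was 1 of the 10 (Fgf22), beside 1499 of all 17151 genes. The same count of 0 past the adjusted threshold was reached with DESeq2 size factors and in the fit of all libraries. The Fgfr1 difference there was 0.01 with an interval of -0.57 to 0.58, and that of Dusp6 was 0.32 with an interval of -1.09 to 1.74. Because each model was its own batch and day, none of these differences can be told apart from batch or day.

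**Figure D3:**
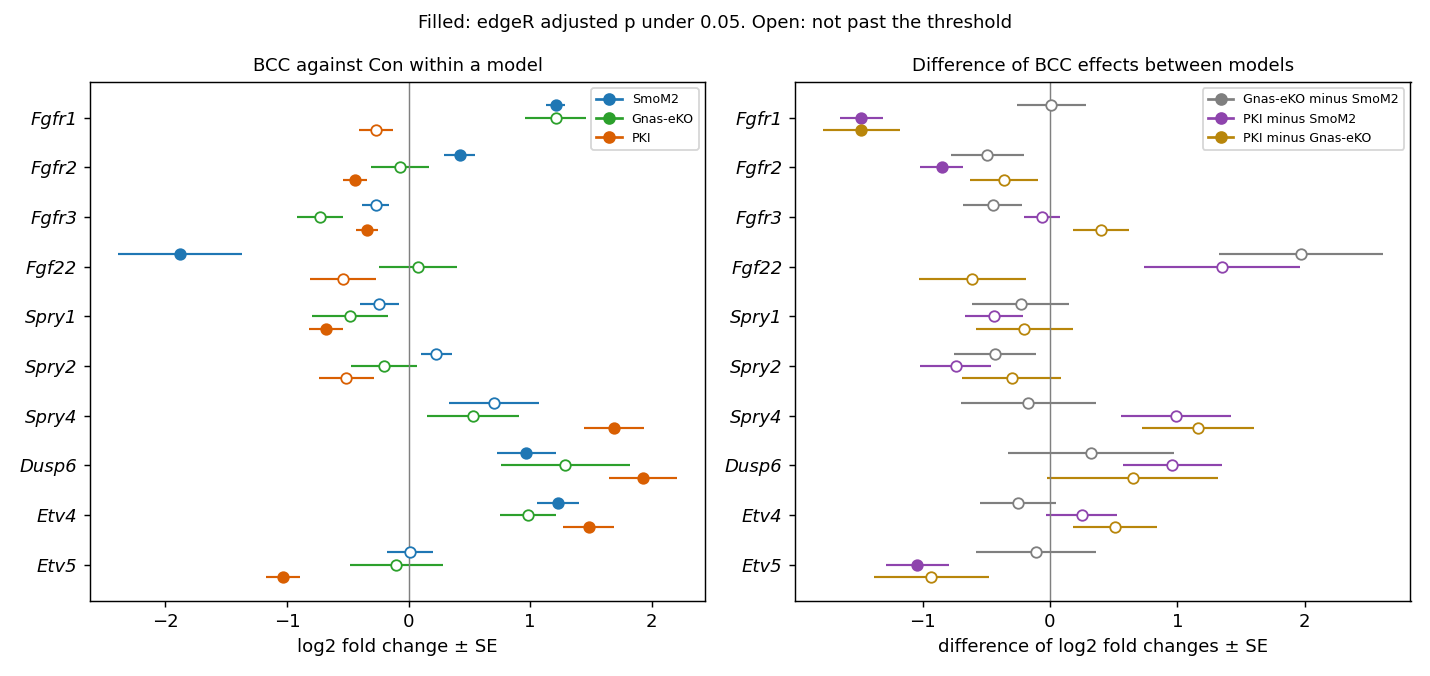
Left, log2 fold change of BCC against Con (horizontal axis, with SE) for each gene in each model. Right, difference of those changes between models (with SE). Filled circles passed an adjusted p of 0.05 and open circles did not. Fgfr1 lies near 1.21 in SmoM2 and Gnas-eKO and at -0.27 in PKI.

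The other FGF family genes were listed with 4 intracellular relatives that are not secreted ligands (Fgf11 to Fgf14), and 13 of 21 were in the table. Some passed the filter on low counts, about 0.5 CPM in 3 libraries, only through the group where they were high, so the filter itself favoured a difference. For those, Fgf2, Fgf5 and, in PKI, Fgf18, the values are a description with no test, and no count over the list is given. Fgf2, the basic FGF, stood in SmoM2 at 0.271 ± 0.287 CPM (SD, n = 3) for Con and 7.08 ± 2.64 (n = 4) for BCC. In PKI it was at 0.347 ± 0.255 and 12.5 ± 1.92, and in Gnas-eKO at 0.346 in Con with BCC libraries between 0.91 and 18.3. The BCC libraries lay above Con in all 3 models. Fgf5, a ligand known for ending hair growth, was at 0 counts in the 3 PKI Con libraries and at 12.3 ± 2.95 CPM in PKI BCC, from 8.79 to 16, which is at least 64.7-fold higher than the floor of 3 counts per library. Its mean was 0.138 CPM in Gnas-eKO Con and 0.765 in BCC, where replicate 2 was at 0.0535, below every Con library. In SmoM2 it was too low to test, at 0.0345 and 0.144 CPM. Fgf18, named after its values were seen, was at 1.31 CPM in PKI Con and 0.263 in PKI BCC.

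Fgf1, acidic FGF, fell in PKI from 25.3 ± 0.635 to 9.79 ± 0.564 CPM (log2 fold change -1.36, edgeR adjusted p = 5.85e-05), and had estimates of 0.27 in SmoM2 and 0.37 in Gnas-eKO. Fgf13, a non-secreted relative that binds sodium channels, fell in all 3 models, by 1.83 on the log2 scale in SmoM2 (adjusted p = 0.000197), 1.43 in Gnas-eKO (0.0445) and 1.41 in PKI (0.00365). The Gnas-eKO call ended without Con replicate 1 or 2, where 0 of all genes passed in edgeR. Whether it held with another library left out was not looked at, and only 4 genes passed without Con replicate 3. Fgf11, another intracellular relative, rose in SmoM2 by a log2 fold change of 1.35 (adjusted p = 0.0189).

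Of 16 other receptors and co-receptors tested in SmoM2, 7 rose and 3 fell; in PKI 5 rose and 5 fell of 15, and in Gnas-eKO 1 rose and 0 fell of 15. The shares over all genes were 29.7%, 34.5% and 1.63%. Flrt2, a membrane protein of a family that binds FGF receptors, rose in SmoM2 from 9.85 ± 1.23 to 53.5 ± 1.21 CPM (log2 fold change 2.45, edgeR adjusted p = 3.5e-07) and in PKI from 10.5 ± 0.855 to 40.8 ± 6.25 (1.97, adjusted p = 6.07e-05), with 2.18 in Gnas-eKO (adjusted p = 0.0533). Ncam1, an adhesion molecule that can engage FGF receptors, rose in SmoM2 (2.38, adjusted p = 0.000383) and in Gnas-eKO (2.65, adjusted p = 0.0202), beside 0.22 in PKI (adjusted p = 0.725). Its Gnas-eKO call ended without Con replicate 1 or 2, as no gene passed there, and was not looked at with another library left out. Fibroblast marker sums were also higher in BCC of all 3 models, and the part of fibroblasts in these values was not tested.

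Few genes of the adaptors and the RAS and ERK cascade passed the test. Of 23 genes tested in each model, 2 rose and 3 fell in SmoM2, 0 passed edgeR's test in Gnas-eKO and 3 rose and 1 fell in PKI, beside 29.7%, 1.63% and 34.5% of all genes. At an unadjusted p under 0.05 SmoM2 had 12, PKI 11 and Gnas-eKO 3. Over all genes that cut was met by 6606 of 16370 in SmoM2, 7326 of 16397 in PKI and 3212 of 16409 in Gnas-eKO. The list medians were 0.09, 0.08 and 0.11 on the log2 scale, over genes that went both ways.

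Of 12 other feedback inhibitors, 6 rose and 1 fell in SmoM2, 1 rose and 0 fell in Gnas-eKO, and 2 rose and 2 fell in PKI, beside 29.7%, 1.63% and 34.5% of all genes, so the PKI share was close to that of all genes. Il17rd, also called Sef, an inhibitor of FGF signalling at the membrane, rose from 4.06 ± 1.26 to 15 ± 2.72 CPM in SmoM2 (log2 fold change 1.91, edgeR adjusted p = 0.000204) and from 3.67 ± 0.333 to 19.8 ± 10.3 in Gnas-eKO (2.46, adjusted p = 0.0485), a call that ended without Gnas-eKO Con replicate 1 or 2. Whether the Il17rd call held with another library left out was not looked at. In PKI its estimate was 0.46 (adjusted p = 0.198), and the difference PKI minus SmoM2 was -1.44 (adjusted p = 0.00918). Dusp9, a phosphatase of ERK, rose in SmoM2 (1.02, adjusted p = 0.0155) and PKI (1.53, adjusted p = 0.00164). Spred1, a partner of the neurofibromin protein, rose in SmoM2 by 0.46 (adjusted p = 0.00149) and fell by 0.46 in PKI (adjusted p = 0.0139). Lrig1, a receptor inhibitor of epidermal stem cells, rose in SmoM2 by 1.19 (adjusted p = 2.03e-05), beside 0.02 in PKI. In Gnas-eKO it was at 99.4 ± 9.73 CPM in Con and 189 ± 75.1 in BCC, where libraries ran from 95.9 to 274, and did not pass.

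Of the other ERK-responsive genes, those that passed the filter on low counts only through BCC (Plaur in all 3 models, Phlda2 in PKI) were left out, since the filter itself favoured a difference. In PKI 9 of the remaining 15 rose and 1 fell, beside 18.7% and 15.8% of all genes. In SmoM2 3 of 16 rose and 2 fell, beside 16.2% and 13.5%, and in Gnas-eKO 0 of 16 passed in edgeR, beside 1.63%. At an unadjusted p under 0.05 the list had 11 genes in PKI, 7 in SmoM2 and 8 in Gnas-eKO, and its median log2 fold change was 0.69, 0.18 and 0.48 in that order. All genes under that cut were 7326 of 16397 in PKI, 6606 of 16370 in SmoM2 and 3212 of 16409 in Gnas-eKO. Fosl1, a FOS-family factor, rose in PKI from 0.897 ± 0.539 to 8.71 ± 3.91 CPM (log2 fold change 3.26, edgeR adjusted p = 0.00298), with 0.52 in SmoM2 and 0.86 in Gnas-eKO. Elk3, an ETS factor, rose in SmoM2 by 1.61 (adjusted p = 1.22e-05) and in PKI by 1.81 (adjusted p = 0.000318). In Gnas-eKO it was at 10.6 ± 1.91 CPM in Con and 19.5 ± 2.38 in BCC, without overlap, and did not pass. PKI BCC replicates 1 and 2 stood above 3 and 4 in 3 early genes that were chosen after their values were seen: Egr1 was at 585, 558, 257 and 277 CPM in replicates 1 to 4, Junb at 456, 449, 252 and 227, and Fos at 205, 180, 34.4 and 44.7, with the last 2 Fos values under all Con libraries. Dusp6 was also highest in replicates 1 and 2. Summed myeloid markers, mostly Cd74, were higher in PKI BCC than in PKI Con, and the part of myeloid cells in these values was not tested.

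**Figure D4:**
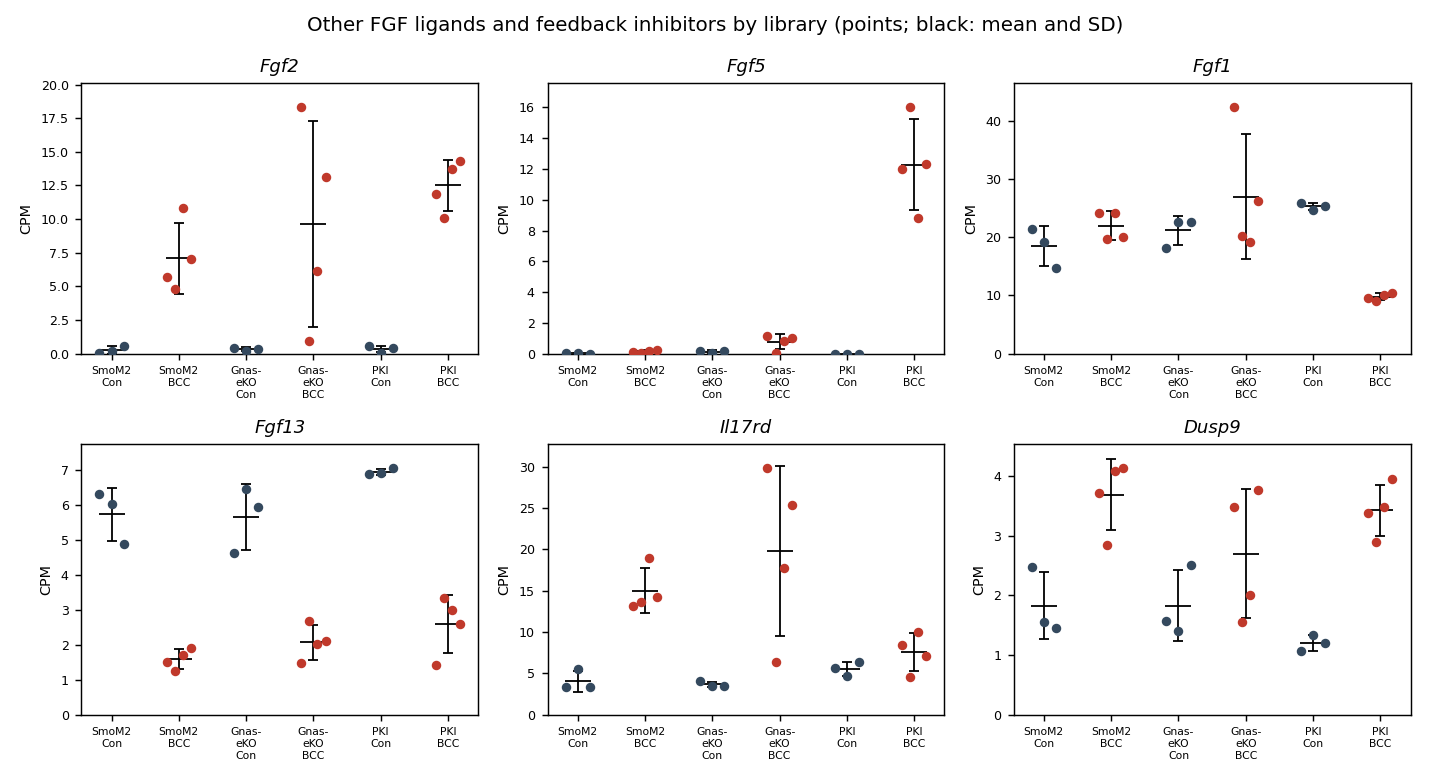
Level in CPM (vertical axes, each from 0) of 4 other FGF family genes and 2 inhibitors in the 21 libraries, by model and group. Points are libraries and black marks the mean and SD. Fgf2 and Fgf5 are near 0 in Con, and Fgf5 reaches 8.79 to 16 in PKI BCC.

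The genes whose profile over the 21 libraries was nearest to a member were found by the root mean square (RMS) difference of centred log2 CPM among genes averaging 2 or more in log2 CPM. Fgfr1 was nearest to Six5 (0.194), Clcn2 (0.195) and Cyp4f17 (0.197). Fgfr3 was nearest to Sema4b (0.141) and to the basal keratin Krt5 (0.145). Dusp6 was nearest to Socs3 (0.35), Ier5l (0.374) and Cebpd (0.376), and Etv4 to Tes (0.245). Etv5 was nearest to Fjx1 (0.251) and Cdon (0.265), the latter a Hedgehog co-receptor. Fgfr2 was nearest to Tmem67 (0.155), Fgf22 to Rnf222 (0.394), Spry1 to Pwwp2b (0.22), Spry2 to Tpst1 (0.213) and Spry4 to Piwil2 (0.287).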

How the data were processed

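Tail epidermis was scraped off after trypsin and dispase, and stranded mRNA libraries were made from the RNA, per the labels' protocols. The submitters' processing notes name bcl2fastq 2.20, cutadapt 1.18, STAR 2.7.0f, Partek and the build mm10; the counting tool and its use of strand are not given in the sources used here. The authors deposited estimated counts per gene, 33.1% of them not whole, and a table of their normalized values whose deposited signal was used only in an alternative. Every gene listed had a total of at least 10. Counts were rounded and fitted within each model with edgeR 4.0.16 (R 4.3.3; filterByExpr, TMM, robust quasi-likelihood, Benjamini-Hochberg over all genes, threshold 0.05), and in pairs of models for differences. CPM came from 1 TMM scaling of the 21 libraries. Alternatives used DESeq2 1.42.0, DESeq2 size factors, no filter, limma 3.58.1 on the authors' values, a joint fit, the replicate block and each library left out. The fits were tested on simulated data. Exon overlaps came from GENCODE M21 and promoters from RefSeq (GRCm38.p6). The 10 members were all described; of each other list the 4 called genes of largest change per model, averaging 0 or more in log2 CPM, could be named, and the text gives part of them. Genes named after their values were seen are marked as such. The members and lists were chosen with earlier results of these data known. Nothing states that replicates were separate animals beyond their names, so p-values measure the spread between these libraries. A total of 11 listed genes were not analysed here.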

Additional observations from a re-analysis of the deposited data

Results flagged for a closer look

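Spry4 in SmoM2 BCC had 1 library far from the others: replicate 4 at 0.806 CPM beside 1.9, 1.93 and 2.04, a gap of 0.89 of the range. Spry4 in Gnas-eKO BCC had the same form, with replicate 2 at 1.34 CPM beside 2.98, 2.91 and 3.14, a gap of 0.873. These were 2 of the 30 group values of this size that were looked at, and chance gives about 1 in 20. The BCC effect on Fgfr1 differed between models by -1.48 (PKI minus SmoM2) and -1.48 (PKI minus Gnas-eKO), that on Fgfr2 by -0.85 and that on Etv5 by -1.04 (both PKI minus SmoM2). Model, batch and day cannot be told apart in these differences.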

How the results depend on the processing

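Of 930 refits of the 10 genes, 857 kept direction and side of the threshold, 21 lost a call, 22 gained one and 30 changed sign, with none of the last passing the threshold. Fgfr1 and Etv4 in SmoM2 passed in all 13 alternatives, as did Spry1, Spry4, Dusp6, Etv4 and Etv5 in PKI, and both Fgfr1 differences from PKI and the Fgfr2 difference from SmoM2 passed in all 18. The number of genes past the threshold in Gnas-eKO, 267, was 1535 with DESeq2's Wald test, 2644 in the joint fit, 135 with the replicate block and 0 to 1910 with 1 library left out, with 0 without Con replicate 1 or 2, 4 without Con replicate 3 and the highest without BCC replicate 2. For Gnas-eKO minus SmoM2 the 30 became 66 in the joint fit and 14 to 79 with 1 library left out, and for PKI minus Gnas-eKO the 1564 became 925 with the replicate block and 673 to 2512 with 1 library left out. With the replicate number as a block, SmoM2 had 3428 calls in place of 4860 and PKI 5988 in place of 5653, SmoM2 Fgfr2 was lost (adjusted p = 0.141), as were SmoM2 Fgf22 (-2.12, 0.0553) and the Etv5 difference PKI minus SmoM2 (-1.09, 0.0586), and PKI Fgfr1 gained (-0.31, 0.0439). Same-numbered libraries did not deviate together in every pair (correlations -0.112 to -0.0729 in SmoM2, 0.0213 to 0.146 in Gnas-eKO and -0.0547 to 0.241 in PKI), so the numbers were not read as pairs.

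The sign changes were of values near 0. Etv5 in SmoM2 was 0 in the joint fit and -0.14 to 0.25 with 1 library left out. In Gnas-eKO, leaving out 1 library gave -0.12 to 0.29 for Fgf22, -0.36 to 0.16 for Etv5, -0.25 to 0.1 for Fgfr2 and -0.3 to 0.02 for Spry2. For Gnas-eKO minus SmoM2, Fgfr1 was 0 without the filter, -0.13 with the replicate block and -0.12 to 0.18 with 1 library left out, Dusp6 -0.09 with the block and -0.08 to 0.81, Etv5 -0.38 to 0.15 and Spry4 -0.39 to 0.09. For PKI minus SmoM2, Fgfr3 was -0.17 to 0.01. The cause was not tested. A pseudocount of 5 for the ratio of Etv4 to Etv5, chosen after seeing the data, gave 1.19, 1.15 and 2.45. Counts of Spry4 and Fgf22 were low, which limits the precision of their changes.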
